A study of Mus musculus with 8 samples.

Results

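Megakaryocyte-erythroid progenitors (MEP) from mouse bone marrow were compared with and without Ezh2 on each of 2 JAK2 backgrounds. The comparison used the 4 MEP arrays of the 8 arrays in the series, chosen by their cell type label, as 2 matched pairs. In the JAK2 wild-type pair, MEP labelled Ezh2Δ/Δ (both copies of Ezh2 deleted) were set against WT MEP. In the JAK2V617F pair, MEP labelled JAK2V617F/Ezh2Δ/Δ were set against JAK2V617F MEP, so that JAK2V617F, the activating kinase mutation of myeloproliferative neoplasms, was present on both sides. All 4 groups had the C57BL/6 strain label and were sorted from bone marrow 2 months after transplantation. The other 4 arrays held LSK cells, the marrow fraction without lineage markers and with Sca-1 and Kit that contains the stem cells, of the same 4 genotypes. Each group had 1 array, so neither pair has a replicate of its own. The promoter driving the deletion, the way JAK2V617F was introduced, the number of mice behind a sample, their age and the share of donor cells are not given in the sources used here.

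Ezh2 is the catalytic subunit of Polycomb repressive complex 2, which methylates histone H3 at lysine 27 and keeps lineage-foreign, fetal and developmental genes silent. MEP are the progenitors that give rise to red cells and platelets, and they have normally shut off the lymphoid and most of the myeloid genes. Silenced genes of this kind are scarcely read by an array in intact cells, where it can give only a bound.

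All values below are levels on a log2 scale, the scanner's processed signal with the array's own 75th percentile set to 0, and a difference is the Ezh2-deleted level minus the intact level of its pair. Where 1 array of a pair was not well above background, its value was replaced by that array's floor, the dimmest signal flagged as detected there, unless already higher, and the difference is given as a lower bound ("at least"). Of 20034 autosomal genes, 11427 were measured in the JAK2 wild-type pair, 11907 in the JAK2V617F pair and 10963 in both. Between 39.9% and 44.1% of the 55681 probes were well above background on an MEP array.

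The sort labels were checked with a few markers of the cells. The erythroid transcription factor Klf1 had levels of 4.28, 4.03, 4.13 and 3.28 in WT, Ezh2-deleted, JAK2V617F and JAK2V617F/Ezh2-deleted MEP, and every 4-value series below is in this order. The carbonic anhydrase Car1 stood at 8.04, 7.67, 7.80 and 7.15. Flt3, a receptor of lymphoid-primed progenitors, was not well above background on any MEP array, and Ly6a, which encodes Sca-1, was above it only in JAK2V617F/Ezh2-deleted MEP at -2.65. Cd34, a progenitor surface gene, was well above background on all 4 MEP arrays at 1.23, 0.92, 2.26 and 1.24, against 7.70 to 8.12 on the LSK arrays. These markers go with the MEP label on all 4 arrays but do not measure the purity of the sort.

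The targeted gene did not separate the groups. Ezh2 had levels of 4.14, 4.04, 4.23 and 3.57, a difference of -0.10 in the JAK2 wild-type pair and -0.67 in the JAK2V617F pair. Whether its single probe lies in the deleted part is not known here, so it does not check the labels. Jak2 stood at 3.24, 3.07, 3.37 and 2.51. Sex did separate them: Xist, the RNA of the inactive X, had levels of 2.16 and 2.99 on the deleted arrays and was not well above background on the intact ones, and the Y-linked Eif2s3y had 3.56 and 3.45 on the intact arrays and was not well above background on the deleted ones. Deletion and sex cannot be told apart in these samples, and the results below are restricted to autosomal genes for that reason.

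With Ezh2 deletion more genes were higher than lower on wild-type JAK2, and the order turned on JAK2V617F. In the JAK2 wild-type pair 449 genes (3.93% of those measured) were at least 2-fold higher with deletion and 276 (2.42%) at least 2-fold lower. In the JAK2V617F pair 628 (5.27%) were higher and 958 (8.05%) lower. This split rests on the scaling: the median difference over all genes was -0.09 and -0.26 in the 2 pairs, and with each pair centred on its median the counts became 529 higher and 242 lower (68.6% higher, against 61.9%) and 1078 higher and 312 lower (77.6% higher, against 39.6%). The difference in the JAK2V617F pair also moved with signal level. Its median was 0.27 for genes with a mean level under -2, -0.47 for levels between 2 and 4, and 0.11 above 6, while the JAK2 wild-type pair ranged from 0.10 to -0.13.

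Both pairs agreed on 136 genes at least 2-fold higher, 1.24% of the 10963 genes measured in both. These are 30.3% of the genes higher in the JAK2 wild-type pair and 21.7% of those higher in the JAK2V617F pair. Far fewer, 27 genes or 0.246%, were at least 2-fold lower in both, which are 9.78% and 2.82% of the lower genes of each pair. A further 32 genes were at least 2-fold apart in opposite directions. Among the 136 higher genes, 71 were well above background on all 4 MEP arrays, and 35 were above it on neither intact array, so that both their differences are bounds.

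**Figure D1:**
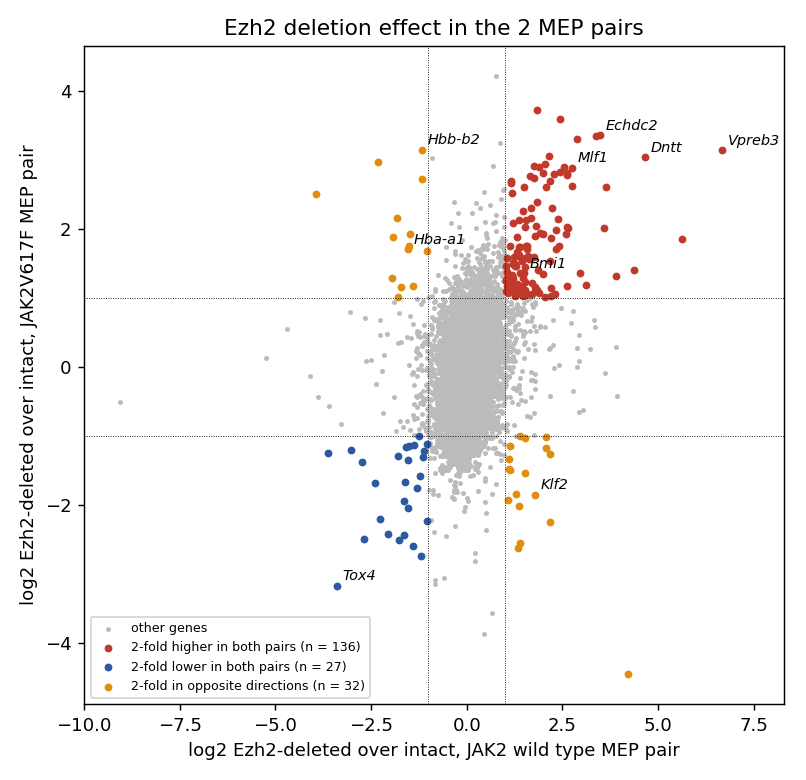
Each point is an autosomal gene measured in both MEP pairs, with the log2 difference in the JAK2 wild-type pair on the horizontal axis and in the JAK2V617F pair on the vertical axis; dotted lines mark 2-fold. The 136 genes in the upper right corner outnumber the 27 in the lower left, and the globins and Klf2 lie in the corners of opposite direction.

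Echdc2, which encodes a mitochondrial protein with an enoyl-CoA hydratase domain, came first by the smaller of its 2 differences, values at the floor included. Its levels were -1.63, 1.85, -1.05 and 2.31, so the deleted arrays lay 3.48 (11.1-fold) and 3.35 (10.2-fold) above their intact partners. Both deleted arrays stood well clear of both intact ones. A second Echdc2 probe gave smaller differences of 0.97 and 2.46. Genes whose differences are bounds have no order against it.

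Slc30a4 encodes a zinc transporter. It was not well above background on either intact array and reached 0.71 and 0.42 on the deleted arrays, at least 10.4-fold and at least 10.2-fold higher. Mlf1, a gene first known from a myeloid leukaemia translocation, had levels of -1.91, 0.84, -1.07 and 1.82, differences of 2.74 and 2.89. The actin regulator Evl was measured on every array, at 0.08, 2.71, -0.36 and 2.44, and Cnnm1, of the CNNM family of membrane proteins, at -1.76, 0.98, -1.07 and 1.55. In each of these genes, as in Echdc2, the deleted and the intact arrays did not overlap, which the ranking on these same arrays favours.

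Most of the other leading genes were dim in intact MEP. Catsperz, a subunit of the sperm calcium channel, was at least 7.35-fold higher on wild-type JAK2 and 9.87-fold higher on JAK2V617F. The secreted neuropeptide Npw had levels of -0.14, 2.11, -0.32 and 1.98, differences of 2.24 and 2.30. Chrm5, a muscarinic acetylcholine receptor, was above background only on the deleted arrays, where it was at least 4.54-fold and 6.45-fold higher. Afp, the fetal serum protein made by embryonic liver and named here from the fetal and let-7 list, stood at -1.17, 0.81, -1.08 and 1.73. Fndc4 was at least 5.84-fold and 7.46-fold higher, Mpped2, a metallophosphoesterase, at least 6.13-fold and 6.87-fold, the histone variant gene Macroh2a3 at least 12.4-fold and 6.10-fold, and Cbs, the entry enzyme of transsulfuration, 5.38-fold and at least 7.05-fold. All of them were brighter on both deleted arrays than on either intact array, which their choice by differences on these same arrays favours.

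**Figure D2:**
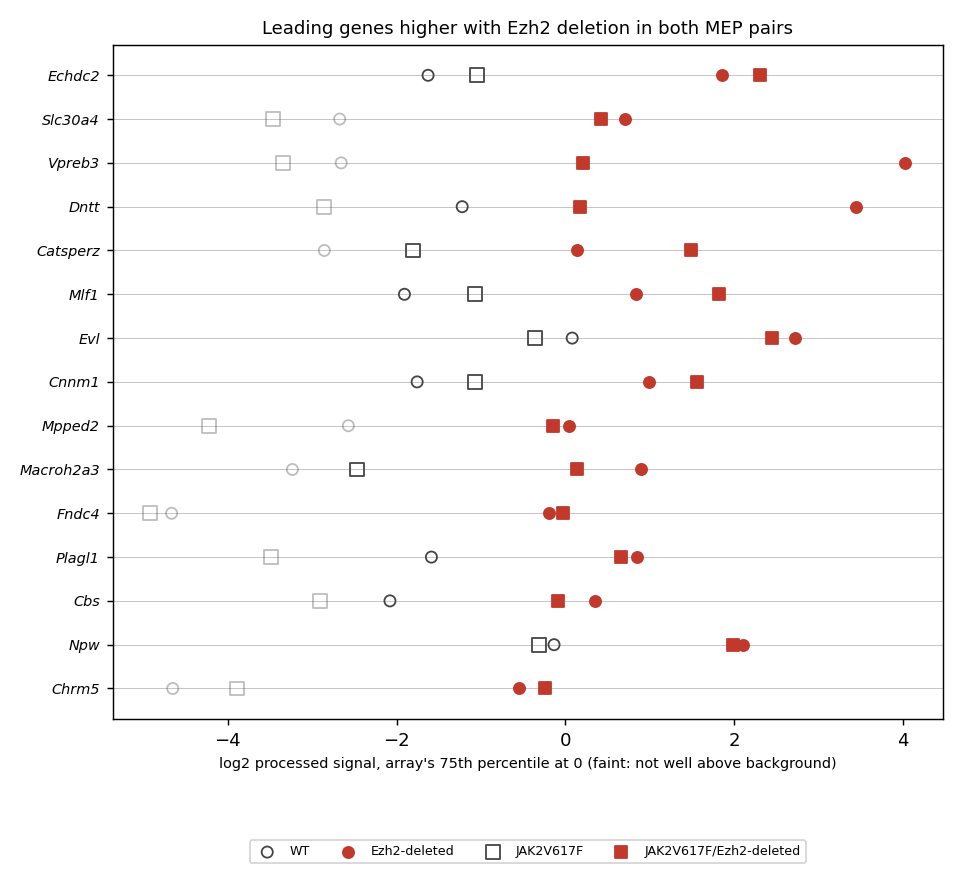
Log2 levels of the 15 leading genes on the 4 MEP arrays, 1 symbol per array, with open symbols for Ezh2-intact and filled symbols for Ezh2-deleted MEP, circles for wild-type JAK2 and squares for JAK2V617F, and faint symbols for arrays not well above background. Every filled symbol lies to the right of both open symbols of its gene, which the ranking on these same arrays favours.

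Imprinted and Polycomb genes were among the 136. Plagl1, an imprinted zinc finger transcription factor, had levels of -1.59, 0.84, -3.48 (not well above background) and 0.66, 5.40-fold and at least 12.0-fold higher. A second of its 4 probes gave 2.89 and 3.13, and the remaining pair of dim probes gave between -0.17 and 0.50. Ascl2, an imprinted basic helix-loop-helix factor, stood at -1.71, 0.63, -1.83 and 0.15, differences of 2.34 and 1.98, and Sgce was 2.35-fold and 2.30-fold higher. These were 3 of the 14 imprinted genes measured in both pairs, against 1.24% of all genes, and the list's medians were 0.11 and 0.84. Bmi1, a core subunit of Polycomb repressive complex 1, rose from 2.62 to 4.11 on wild-type JAK2 and from 2.43 to 3.79 on JAK2V617F and its second probe was also at least 2-fold higher in both pairs. It was the only one of 18 measured PRC1 genes at least 2-fold higher in both pairs. None of the 12 measured PRC2 genes was at least 2-fold apart in both; the subunit Eed had differences of -0.39 and -0.22 and Suz12 of -0.23 and -0.64.

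The promoters of these genes differed widely in CpG content, the feature that Polycomb targets are known for, and 4 are printed as examples. Of these, 2 are CpG-rich windows of genes called higher by limma and at least 2-fold higher on both backgrounds. The other 2 are CpG-poor windows of pre-B receptor genes. They do not span the range, since the window of Slc30a4 held 46 CpG. Each window runs from 250 bases before to 50 bases after the RefSeq start of the gene in GRCm38.p6, on the strand of the gene, with every CG in capitals. The windows are chr3:67373847-67374146 (plus strand) for Mlf1 with 24 CpG, chr2:18676768-18677067 (plus) for Bmi1 with 23, chr16:16869206-16869505 (minus) for Vpreb1 with 2 and chr10:75948050-75948349 (plus) for Vpreb3 with 3.
Mlf1: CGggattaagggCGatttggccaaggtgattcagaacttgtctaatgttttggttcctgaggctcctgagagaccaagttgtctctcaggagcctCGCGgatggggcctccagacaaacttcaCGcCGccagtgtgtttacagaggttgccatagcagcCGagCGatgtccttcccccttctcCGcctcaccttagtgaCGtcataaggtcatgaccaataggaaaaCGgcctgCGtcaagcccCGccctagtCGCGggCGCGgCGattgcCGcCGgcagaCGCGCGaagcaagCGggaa
Bmi1: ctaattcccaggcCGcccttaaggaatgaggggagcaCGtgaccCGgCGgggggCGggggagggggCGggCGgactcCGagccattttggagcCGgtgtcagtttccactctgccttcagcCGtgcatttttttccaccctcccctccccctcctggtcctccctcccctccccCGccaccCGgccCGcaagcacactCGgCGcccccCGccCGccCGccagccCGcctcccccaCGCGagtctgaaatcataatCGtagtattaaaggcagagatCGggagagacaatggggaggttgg
Vpreb1: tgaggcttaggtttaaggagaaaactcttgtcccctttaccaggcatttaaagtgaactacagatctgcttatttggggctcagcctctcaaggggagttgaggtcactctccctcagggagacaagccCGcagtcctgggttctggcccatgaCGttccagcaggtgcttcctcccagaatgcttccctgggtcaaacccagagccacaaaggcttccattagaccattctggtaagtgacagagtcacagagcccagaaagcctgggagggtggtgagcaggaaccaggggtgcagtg
Vpreb3: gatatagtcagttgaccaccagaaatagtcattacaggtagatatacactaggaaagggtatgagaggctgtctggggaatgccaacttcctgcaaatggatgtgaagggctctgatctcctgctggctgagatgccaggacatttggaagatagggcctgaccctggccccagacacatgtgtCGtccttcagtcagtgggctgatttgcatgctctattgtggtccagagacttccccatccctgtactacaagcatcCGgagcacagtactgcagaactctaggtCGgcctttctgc

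Of the 136 genes, 113 had a window, with a median of 20 CpG. A window was counted as CpG-rich with a CpG observed-to-expected ratio of at least 0.6 and at least 50% G and C. That held for 57.5% of the 113, for 68.6% of the 8808 windows of all genes measured in both pairs, and for 40.9% of the 242 windows of genes measured in both pairs but above background on at most 2 arrays. Within the class it held for 46.9% of the 32 windows of genes above background on neither intact array. For genes above background on all 4 arrays it held for 57.4% of 54 windows. None of the 10 windows of measured B lineage genes was CpG-rich. The GATA motif AGATAA, read on both strands, was found in 8.85% of the 113 windows and 6.76% of the 8808. It was found in 12.0% of the 242 windows of dim genes and in 9.87% of those of all autosomal protein-coding genes.

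Of the B lineage genes measured, 11 of 14 were at least 2-fold higher with Ezh2 deletion on wild-type JAK2 (3.93% of all genes) and 5 of 11 on JAK2V617F (5.27%), and limma called 1 of them, Blnk. The list had 7, 14, 6 and 11 genes well above background on the MEP arrays. A gene above background only on the deleted array of a pair cannot read as lower. The filter thus tilts these counts and the list's medians upward. Vpreb3, which takes part in pre-B receptor assembly, was not well above background on the intact arrays and reached 4.02 and 0.21 on the deleted ones, at least 102-fold and at least 8.80-fold higher. The surrogate light chain gene Vpreb1 had levels of -1.13, 4.49, -0.50 and 1.36. Its near-identical copy Vpreb2, whose signal the probes may share, was at least 20.9-fold and 2.63-fold higher. Blnk, the adaptor downstream of the pre-B receptor, stood at -0.63, 2.97, -2.13 and -0.11, differences of 3.60 and 2.01. In all 4 genes the JAK2 wild-type deleted array was the brightest of the MEP arrays.

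Of the list's 11 genes measured in both pairs, 4 were at least 2-fold higher in both, against 1.24% of all genes. None of its measured genes was at least 2-fold lower in either pair. Its medians were 2.42 and 0.85, against -0.09 and -0.26 for all autosomal genes. Ebf1 and Pou2af1 were well above background only in Ezh2-deleted MEP on wild-type JAK2, and Pax5, Cd79a, Rag1, Rag2 and Ms4a1 on no MEP array. The list's summed linear level was 81.2, 125.2, 68.6 and 63.1. In bulk samples fewer cells of a type and less RNA per cell cannot be told apart, and the part of B lineage cells in these differences was not tested. In the test of the difference between JAK2 backgrounds described below, no B lineage gene was called; Vpreb3 had an adjusted p of 0.329 and Vpreb1 of 0.292 (limma).

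A few lymphoid priming genes were also higher in both pairs. Dntt, the terminal transferase that adds nucleotides at rearranged antigen receptor genes, had levels of -1.22, 3.44, -2.86 (not well above background) and 0.17, 25.3-fold and at least 8.20-fold higher. Ly6d, a marker of lymphoid commitment, was at least 6.14-fold and 2.25-fold higher, and the chromatin organiser Satb1 at least 3.47-fold and 2.24-fold. These were 3 of 13 genes of the list measured in both pairs, against 1.24% of all genes, and each was called by limma; the list had medians of 0.88 and 0.35. Cd52 was higher on wild-type JAK2 alone, with levels of -0.08, 2.10, 1.32 and 0.90.

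Some granulocyte genes had higher levels with deletion. Of those measured, 5 of 15 were at least 2-fold higher on wild-type JAK2 (3.93% of all genes) and 5 of 20 on JAK2V617F (5.27%), with none 2-fold lower and none called by limma. The myeloperoxidase gene Mpo stood at 2.36, 3.53, 5.34 and 6.55, differences of 1.17 and 1.21. Ctsg, cathepsin G of the same granules, stood at 0.51, 1.83, 3.27 and 4.94. For both genes the JAK2V617F arrays lay above both JAK2 wild-type arrays. The list's medians were 0.64 and 0.72 with 15 genes measured in both pairs, of which 2 were at least 2-fold higher in both (1.24% of all genes), and its summed level was 265.6, 344.1, 419.2 and 760.7. Not all members leaned upward: the secondary granule genes Ltf, with 0.42 and -0.52, Ngp, with 0.64 and -0.58, and Lcn2, with 0.25 and -0.31, had lower levels with deletion on JAK2V617F. Ly6c1, a monocyte surface gene with a near-identical neighbour, was 2.58-fold and 4.38-fold higher. The part of granulocyte and monocyte precursors within the sort was not tested.

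Of other regulators, Cdkn2a, the Ink4a/Arf locus that Polycomb is known to silence, was not well above background in WT MEP and had -1.41 with deletion, and had -0.19 and 0.97 on JAK2V617F, differences of at least 1.32 and of 1.17. It was the only one of 7 CDK inhibitor genes at least 2-fold higher in both. Perp, a p53 target in cell adhesion, rose by 1.58 and 1.75, the only one of 19 p53 target genes to do so in both. Of the let-7 axis, Lin28b was well above background only in JAK2V617F/Ezh2-deleted MEP, at least 9.77-fold higher there, and Hmga2 by its brightest probe only in Ezh2-deleted MEP on wild-type JAK2, at least 10.8-fold higher. A second, dimmer Hmga2 probe was above background on both deleted arrays and on neither intact one, with differences of 3.08 and 3.38 without a floor, so the restriction to wild-type JAK2 holds for the brightest probe only. Of 50 developmental regulators that PRC2 silences in other tissues, only 4 were measured in both pairs and none was 2-fold apart in both.

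The genes lower in both pairs were led by Tox4, an HMG box gene. Its levels were 3.68, 0.29, 3.65 and 0.49, 10.5-fold and 8.97-fold lower with deletion, but its second probe, detected on all 4 arrays, gave -0.08 and -0.58. The 2 probes thus disagree on the size of the difference. Hoxb2, of the Hox cluster B, stood at -0.41, -2.89 (not well above background), 0.77 and -1.43, at least 4.78-fold and 4.60-fold lower. Scin, which encodes the actin-severing protein scinderin, was 2.49-fold and 3.37-fold lower, the desaturase family gene Fads3 3.48-fold and 2.44-fold, and the transmembrane serine protease gene Hpn 2.34-fold and 2.99-fold, the last from levels of 4.95, 3.73, 5.08 and 3.50. Gstm2, a glutathione transferase, and Clip2, a microtubule-binding protein, were lower by 2.75 and at least 1.38, and by 2.41 and at least 1.68.

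Many of the other lower genes were dim and lay together on the slide. Of the 27, 16 (59.3%) had their probe in rows 1 to 96 of the array's 384 rows, against 26.0% of all genes measured in both pairs and 34 of the 136 higher genes. The 11 lower genes that were above background on neither deleted array all lay in rows 4 to 84, among them Lama1, Hes3, Tmprss11d, Olfr1317 and Bglap2. Without rows 1 to 96 there were 102 higher and 11 lower genes. The part of slide position in the lower genes was not tested further.

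**Figure D3:**
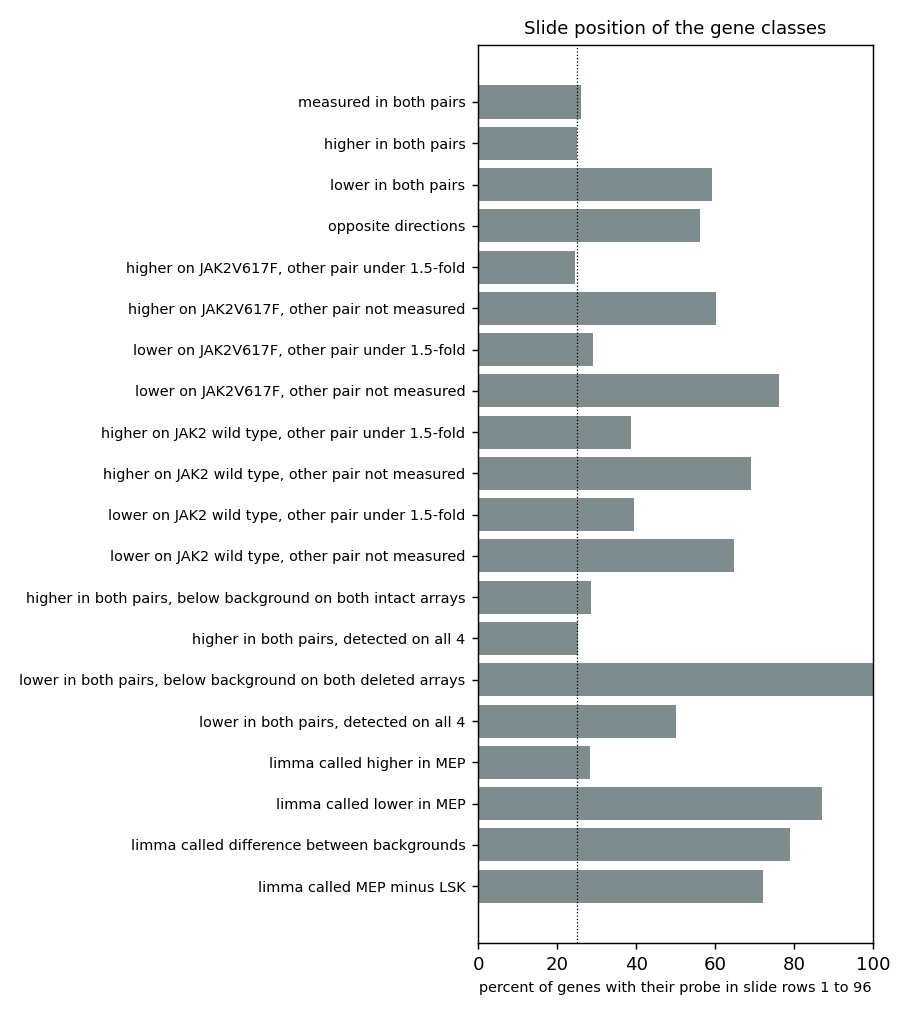
Bars give the percent of genes of each class whose probe lies in rows 1 to 96 of the 384 rows of the array, with a dotted line at the share of rows these make up. Genes higher in both pairs (34 of 136) sit near the 26.0% of all measured genes, while the genes lower in both pairs reach 59.3% and those called lower by limma 87.0%.

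The Ezh2 effect in MEP was tested over all 8 arrays with limma, in a fit with an Ezh2 and a JAK2 term for each cell type and 2 residual degrees of freedom. With 1 array per group, its spread is the disagreement between the 2 pairs of a cell type, pooled over LSK and MEP. At a Benjamini-Hochberg adjusted p under 0.05 it called 95 genes higher (0.851% of 11164 autosomal genes tested) and 23 lower (0.206%). Of the 136 genes at least 2-fold higher in both pairs 60 were called, and of the 27 lower 15. Both classes were chosen for agreement between the same 2 MEP pairs, so these calls are no independent support. Echdc2 had a mean difference of 3.42 ± 0.23 (SE, adjusted p = 0.0015), Mlf1 of 2.82 ± 0.25 (0.0044), Evl of 2.72 ± 0.21 (0.0022), Ascl2 of 2.16 ± 0.22 (0.0075), Bmi1 of 1.42 ± 0.21 (0.032) and Blnk of 2.81 ± 0.36 (0.017). Vpreb3 missed the threshold at an adjusted p of 0.058, though higher in both pairs, and Mpo at 0.119 and Ctsg at 0.071. The genes with the smallest p were Lama1, Olfr1317, Tmprss11d, Hes3, Slc30a4, Tox4, Spats2 and Echdc2; of these only Tox4 and Echdc2 were above background on all 4 MEP arrays, and Spats2 was at least 2.42-fold and 2.77-fold higher.

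These calls rest on few arrays and on dim genes. Of the 118 genes called, 57 were still called with all values raised to a common floor, 14 without the WT or the Ezh2-deleted MEP array, and 27 without either JAK2V617F MEP array. Without an MEP array the fit reads the other MEP pair alone, with the spread taken from the LSK arrays. Of the 23 called lower, 20 (87.0%) lay in rows 1 to 96, against 28.4% of the 95 called higher.

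On the wild-type JAK2 background alone, 101 genes (0.921% of 10963) were at least 2-fold higher and under 1.5-fold apart on JAK2V617F, and 71 (0.648%) lower. Cd79b, the signalling chain of the B cell receptor, had levels of 0.85, 3.11, 1.17 and 1.48, a difference of 2.26 against 0.31. Ffar3, a receptor for short-chain fatty acids, stood at -2.22, 0.72, -1.63 and -1.54, and Bfsp2 at 0.31, 2.59, 1.45 and 1.43. In all 3 the Ezh2-deleted array on wild-type JAK2 was the highest, while for Bfsp2 both JAK2V617F arrays lay between it and the WT array. Plxdc2 behaved differently: it had -0.03, 1.75, 3.38 and 3.17, and both JAK2V617F arrays lay above both others. Among the lower genes Uros, an enzyme of heme synthesis, had 4.79, 3.53, 3.64 and 4.15. Orc5 and Mafg had the largest differences, from 9.47 to 0.41 and from 9.88 to 4.64, but only the WT array was high and their spots are neighbours on the slide, at row 362 and column 17 and at row 363 and column 18.

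On JAK2V617F alone, 232 genes (2.12%) were at least 2-fold higher and 728 (6.64%) lower. Centred on the pair medians these counts were 477 and 157, so the excess of lower genes turned with the scaling. Sparc, a matrix glycoprotein, had levels of -1.43, -1.28, -1.78 and 0.44, a difference of 2.22 against 0.14. Tat, the tyrosine aminotransferase of liver, stood at -2.26, -2.02, -2.54 and -0.16. Both were high on the JAK2V617F/Ezh2-deleted array alone. Hspa1a, the inducible heat shock protein, had the largest difference, 14.6-fold lower, with levels of 1.30, 1.75, 4.73 and 0.86; here the JAK2V617F array was the one that stood apart. Dync2h1, with -0.15, 0.06, 2.23 and -0.58, and Prpf4b, with 0.61, 0.81, 3.19 and 0.50, had the same shape.

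Some lineage genes of platelets and their progenitors had lower levels with deletion on JAK2V617F. The von Willebrand factor gene Vwf had levels of 5.29, 4.97, 3.81 and 2.10, differences of -0.33 and -1.71. Itga2b, the platelet integrin chain CD41, stood at 3.44, 3.17, 2.18 and 1.05, and Gp5 at 1.82, 1.78, 2.12 and 0.89. The JAK2V617F/Ezh2-deleted array was the lowest of the 4 for all 3 genes. Of 21 megakaryocyte and platelet genes measured in both pairs 6 were at least 2-fold lower on JAK2V617F (8.05% of all genes) and none on wild-type JAK2 (2.42%), with medians of -0.68 and 0.17 in that order. On wild-type JAK2, 3 of the 23 measured there were at least 2-fold higher (3.93% of all genes). The list's summed level was 455.9, 663.6, 188.5 and 164.1. Not all members were lower on JAK2V617F: Pf4, at -0.06 against 0.76, and Gp9, at -0.07 against 0.21, hardly differed there. The transcription factors Gata2, at -1.40 against 0.33, Gfi1b, at -1.05 against -0.20, and Cbfa2t3, at -1.01 against -0.07, were 3 of 18 in their list and its medians were -0.64 and -0.01. Stem cell genes had medians of -0.73 and 0.03, with 7 of the 19 measured at least 2-fold lower on JAK2V617F, Kit among them at -1.24. None of these genes was called by the limma fits described below, and the part of the pair's overall downward shift, a median of -0.47 at levels between 2 and 4, was not tested. Genes of heme synthesis and iron uptake had medians of -0.33 on wild-type JAK2 and -0.42 on JAK2V617F. None of the 21 was at least 2-fold apart in both. With wild-type JAK2 again first, erythroid surface and membrane genes had medians of -0.34 and -0.48, and mast cell and basophil genes of -0.04 and -1.10. In the same order, cytosolic ribosomal protein genes had medians of -0.02 and 0.39. Those of mitochondrial ribosomal protein genes were -0.27 and 0.26, and those of respiratory chain genes -0.21 and 0.36.

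The adult globins differed in opposite directions in the 2 pairs. Hbb-b2, a beta globin, had levels of 1.02, -0.13, -0.11 and 3.04, differences of -1.16 and 3.15. Hba-a1 stood at 3.66, 2.14, 1.04 and 2.75 and Hba-a2, its near-identical copy, at 6.39, 4.89, 3.63 and 5.38. For the alpha globins WT MEP were the highest and JAK2V617F MEP the lowest. All 5 globin genes measured had a negative difference on wild-type JAK2 and a positive one on JAK2V617F, with medians of -1.18 and 2.72; Hbb-bt was short of 2-fold on wild-type JAK2 at -0.91 and reached 3.03 on JAK2V617F. Embryonic globins were not well above background on the MEP arrays. The signs held under every scaling tried.

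Klf2 and Fos, of the immediate early genes, had the reverse order. Klf2 had levels of 3.81, 5.61, 6.64 and 4.79, differences of 1.80 and -1.85, and Fos 4.55, 5.66, 6.44 and 4.95, differences of 1.11 and -1.48. JAK2V617F MEP were the highest and WT MEP the lowest for both genes. The list of 18 had medians of 0.76 and -0.89, with 3 at least 2-fold higher on wild-type JAK2 (3.93% of all genes) and 7 lower on JAK2V617F (8.05%), and none called in either limma fit.

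**Figure D4:**
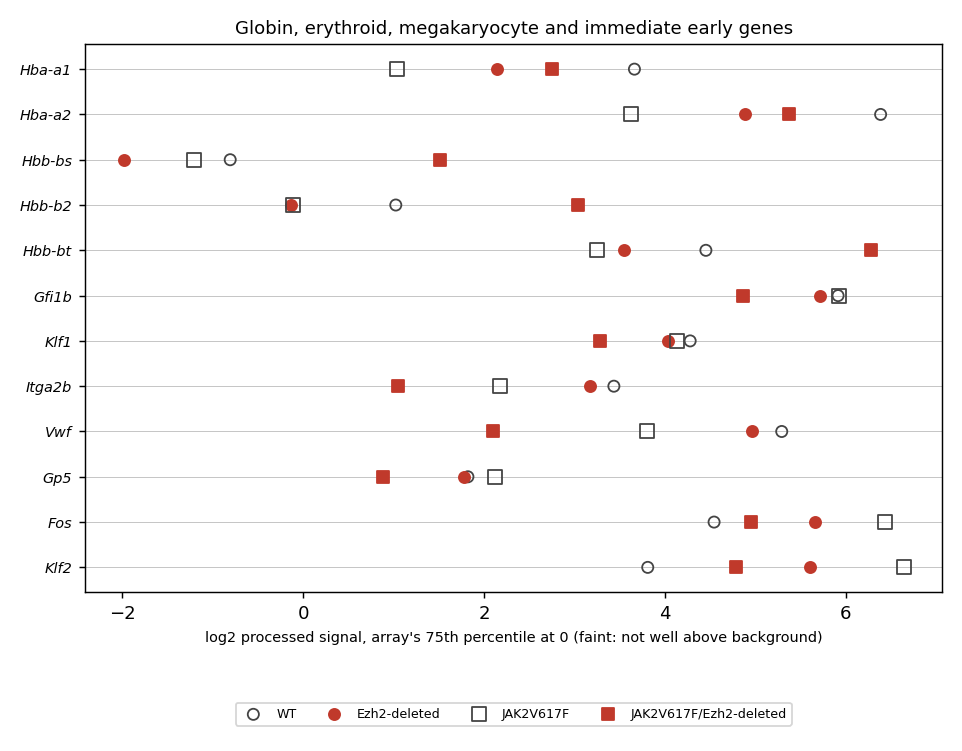
Log2 levels of globin, erythroid, megakaryocyte and immediate early genes on the 4 MEP arrays, 1 symbol per array, with open symbols for Ezh2-intact and filled symbols for Ezh2-deleted MEP, circles for wild-type JAK2 and squares for JAK2V617F. The filled circle lies below the open circle for the globins and the filled square above the open square, and the reverse holds for Fos and Klf2.

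Whether the Ezh2 effect differed between the JAK2 backgrounds was tested by adding an interaction term in MEP, which leaves 1 residual degree of freedom, taken from the LSK arrays. The limma fit called 19 of 11164 genes, 7 with a more positive difference on JAK2V617F than on wild-type JAK2 (0.0627%) and 12 with a more negative one (0.107%). No globin gene passed (adjusted p between 0.115 and 0.218), nor did Fos (0.218) or Klf2 (0.228). Of the 136 genes higher in both pairs none was called. These genes were chosen for agreement between the same MEP pairs whose difference is tested here, which favours a lack of calls. Calls were also rare among all genes tested. The count therefore cannot decide whether the effect on these 136 genes differed between the backgrounds. Of the 19, 15 (78.9%) had their probe in rows 1 to 96 of the slide, and without those rows none of 8253 genes was called, with 1765 at an unadjusted p under 0.05.

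The genes higher in both MEP pairs were then read in the LSK pairs, which the classes did not use. Of the 127 measured in both LSK pairs, 31 (24.4%) were at least 2-fold higher in both, against 1.57% of the 12082 autosomal genes measured there, and none was at least 2-fold lower in both, against 0.24%. In the JAK2 wild-type LSK pair 37 of the 127 were at least 2-fold higher, against 4.07% of all genes there (1.73% lower), and in the JAK2V617F LSK pair 67, against 4.35% (1.63% lower). Echdc2 was higher by 2.22 and 2.77 in LSK, Mlf1 by 2.06 and 2.83, Blnk by 2.73 and 2.70 and Plagl1 by 3.98 and 2.34. Bmi1 was also at least 2-fold higher in both. The LSK and MEP samples share their genotypes and the sex difference, and whether they came from the same mice is not given in the sources used here. A further 54 genes were 2-fold higher in neither LSK pair, with genes lower there included in this count. Ascl2 had 0.02 and 0.19. Mpo, with -0.65 and -1.51, and Ctsg, with -0.42 and -1.33, were lower with deletion in both LSK pairs. In a contrast of the MEP with the LSK effect, added after these values were seen, limma called 18 genes, 5 higher in MEP (0.0448%) and 13 lower (0.116%). Of the 136, 2 were called: Slc30a4, whose effect was 2.89 larger in MEP (adjusted p = 0.042), and Olfr481, named for this count, 3.41 larger (adjusted p = 0.015). Both were below background on both intact MEP arrays, so these values are not sizes of an effect. Of the 18, 13 lay in rows 1 to 96.

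**Figure D5:**
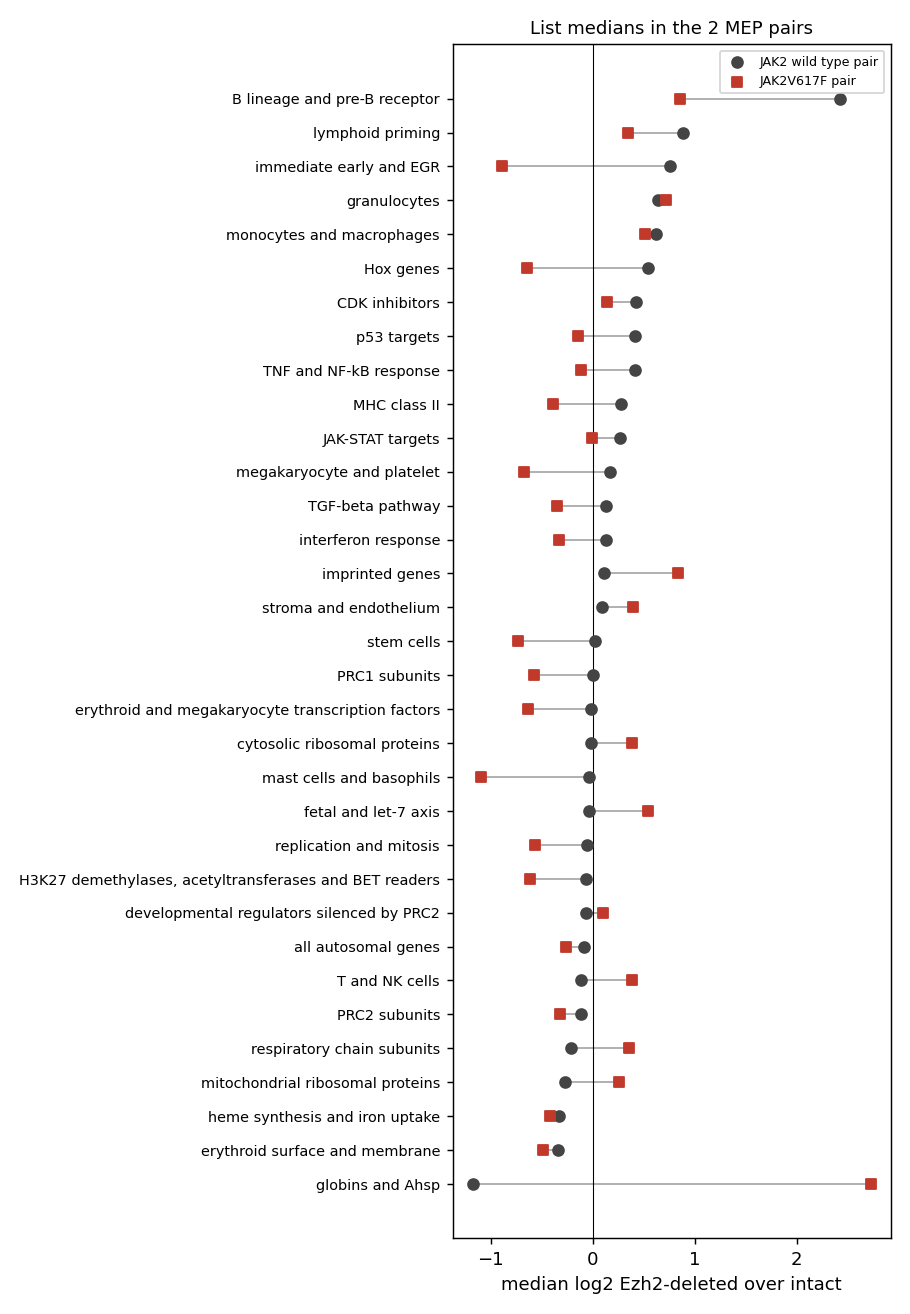
Median log2 difference between Ezh2-deleted and intact MEP for each gene list, with a circle for the JAK2 wild-type pair and a square for the JAK2V617F pair. The B lineage list is highest on wild-type JAK2 at 2.42, and the globins span from -1.18 to 2.72.

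At the 2-fold limit the class is continuous with its surroundings. The genes just inside were Eid3, with differences of at least 1.01 and of 1.25, and Sptb, with at least 1.01 and 1.46. Just outside were Uaca, with 0.997 and 1.25, and Myl9, with at least 0.999 and 1.52. Of the 136 genes, 19 had a second probe detected on at least 2 MEP arrays, which was also at least 2-fold higher in both pairs for 11 and negative in a pair for 3.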

How the data were processed

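Total RNA (20 ng per sample) was labelled with Cy3 and hybridised to 8 one-colour Agilent arrays, 1 per group, on 1 slide read in 1 scan. The deposited scanner files hold processed signal intensity from Feature Extraction 10.7.1.1 per the file headers, with no scaling between arrays. The deposited series table holds a linear ratio, the same signal divided by 1 number for each array that lies close to the array's 75th percentile (found by setting it against the scanner signal), and was used as an alternative. No deposited log2 values were used. Flags for background and outliers were taken as deposited.

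Here, control spots and outlier spots were left out (41 probes), spots of a probe averaged, and log2 taken with the array's 75th percentile at 0. Of 55681 probes, 27488 (49.4%) were named through their RefSeq accession (GRCm38.p6), giving 20880 genes. A gene was read by its brightest probe over the MEP arrays; 5503 had more than 1. Genes entered the limma 3.58.1 fit (R 4.3.3) when well above background on at least 2 MEP arrays. Tested on simulated data (11547 genes), the Ezh2 fit recovered 7, 47, 49 and 50 of 50 genes changed by 1, 2, 3 and 4 on the log2 scale, with 5 false calls. The simulated noise was independent between arrays, without a background limit or slide position, so the false calls need not match these data.

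Genes were named by rule: up to 15 each way by the smaller of both differences, up to 8 each way for a single background among those measured on both sides, the smallest p of each fit, list members, and 2 on each side of the limit; some of these are given only in counts. Members and lists were chosen with earlier results of these data known, and the ribosomal and respiratory chain groups, the MEP against LSK contrast, cyclic loess and the slide row alternative after the values were seen. Differences of a pair have no p-value. Precision is limited by 1 array per group. The p-values rest on the disagreement between the pairs of a cell type, which may be technical, and not on a spread within a group.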

Additional observations from a re-analysis of the deposited data

Results flagged for a closer look

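The interaction term in limma called the following genes, with a fitted difference of the Ezh2 effect in MEP (JAK2V617F minus wild-type JAK2, on the log2 scale without a floor). The fitted value was -13.04 for Klra16 (adjusted p = 0.025), 10.24 for Pcdha8 (0.025), -8.29 for Vmn2r69 (0.030), -7.46 for Tmprss15 (0.030) and -7.28 for Pdc (0.030). Each rests on arrays not well above background and is no size of an effect; with a common floor, and also without rows 1 to 96, this fit called 0 genes (2882 and 1765 at an unadjusted p under 0.05).

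Genes of the lists that were at least 2-fold apart in opposite directions had differences of 3.23 for Hba-a1 (limma adjusted p = 0.115), 3.26 for Hba-a2 (0.173), 3.90 for Hbb-bs (0.218), 4.31 for Hbb-b2 (0.191), 2.59 for Trim10 (0.115), -3.08 for Thbs1 (0.194), -2.59 for Fos (0.218) and -3.65 for Klf2 (0.228). None passed the test.

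A limma contrast of the MEP with the LSK effect called these genes, with fitted values of -3.64 for Lama1, -3.57 for Olfr1317, -4.21 for Tmprss11d and -4.08 for Hes3 (adjusted p = 0.015 each), and of 2.89 for Slc30a4 (adjusted p = 0.042). The first 4 were above background on neither deleted MEP array and lay in slide rows 4 to 84, and Slc30a4 on neither intact MEP array, so these values are differences of signals partly below background and not sizes.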

How the results depend on the processing

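No paired analysis was possible because the groups share only replicate number 1. The count of genes higher in both pairs was 355 at 1.5-fold, 44 at 3-fold, 50 with normexp and 71 with all 4 MEP arrays above background; lower genes numbered 180, 9, 8 and 10, 41 without a floor, 42 with cyclic loess and 11 without rows 1 to 96. Genes of 1 background (higher and lower on wild-type JAK2, then on JAK2V617F) numbered 322, 308, 804 and 3146 at 1.5-fold, 31, 16, 34 and 28 at 3-fold, and 59, 37, 114 and 369 with normexp. On JAK2V617F, lower genes were 464 with quantile scaling and also with cyclic loess; centring gave 477 higher and 157 lower. Without rows 1 to 96, 62 were higher and 43 lower on wild-type JAK2 alone.

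The limma fit in MEP called 47 higher and 11 lower with normexp, 49 and 13 with a common floor, 23 and 4 with all 4 arrays required, 172 and 42 at an adjusted p under 0.10, and 221 and 56 on MEP arrays alone. It called 48 higher with 2 of 8 arrays required, 14 lower without rows 1 to 96, and 9 lower with 1 effect for both cell types. Without a filter it called 0 and 0 of 20034 genes (1820 at an unadjusted p under 0.05). Leaving out an MEP array gave 13 to 34 higher and 18 to 22 lower. Its partner is then fitted exactly, so these counts read the other MEP pair alone, with the spread taken from the LSK arrays. The difference between backgrounds had 1 call with normexp, 6 with a trend, 31 at an adjusted p under 0.10 and 345 without a filter. It had 0 with a common floor (2882 at an unadjusted p under 0.05), 2 of 8 arrays (2192), all 4 arrays (2575) or without rows 1 to 96 (1765). Causes were not tested, except that stricter thresholds and filters leave fewer genes by construction. Of the 30 leading genes, each kept its direction in both pairs under the alternatives that measured it. Past the threshold stayed 365 of these values, and 18 did not. The 1.5-fold threshold, the X and Y genes and the filters on arrays or rows could not move a value, so the 365 overstate the stability. Below background, an array bounds a difference only.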
